A study of Mus musculus with 6 samples.

Results

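The gene expression of NIH3T3 cells carrying GFP alone was described from the 2 arrays of these control cells, out of 6 arrays in the series. NIH3T3 is an immortalised fibroblast line from mouse embryos. The other 4 arrays came from lines overexpressing SIRT7 fused to GFP, named LT7 and ST7 after their cell shape, and were not used here. All 3 groups shared the retroviral vector with its neomycin resistance, the selection in geneticin and the culture in medium with fetal bovine serum. GFP cells had been expanded from single cells, so that the 2 replicates, taken at different passages, were both samples of clonal cells that had been transduced and selected. They showed the spread between passages and arrays and not the spread between independently made lines. No age or strain was given for the cells, and no comparison between lines was made.

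RNA was primed with oligo-dT, amplified, labelled with Cy3 and hybridised to 1-colour arrays carrying probes of 60 bases. All probes with a RefSeq mRNA accession (NM_) were ranked by their mean log2 processed signal over the 2 arrays, and the brightest probe of each gene name was taken. This gave 19516 genes from 28355 probes, out of 50068 gene names on the array. The scanner software marks a spot as well above background when its signal exceeds the local background by a fixed multiple of the background noise, and it marks a spot as saturated when most of its pixels reach the upper limit of the detector. Pairs of values below give the processed signal on GFP replicate 1 and GFP replicate 2, in that order and in arbitrary units. Probes differ in how strongly they bind, so the order of genes is one of brightness and not of transcript number, and saturated probes have no order among themselves.

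Fibroblasts make and remodel connective tissue. They secrete fibrillar collagens and the glycoproteins that link them, hold on to this matrix through integrins, carry vimentin in place of keratin filaments, and respond to platelet-derived and fibroblast growth factors. Genes of the ribosome, the proteasome and the mitochondria are used by nearly all cells. Receptors for odours, pheromones and taste, hormones of the placenta and proteins of hair, lens or blood are used by few cell types.

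The probes themselves set what each value means, and probes of some bright genes are shown, though not always the brightest probe of the gene. Both of the following 60-base probes were designed on the Col1a1 mRNA (NM_007742).
Col1a1 probe A: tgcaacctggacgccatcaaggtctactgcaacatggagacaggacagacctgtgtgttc
Col1a1 probe B: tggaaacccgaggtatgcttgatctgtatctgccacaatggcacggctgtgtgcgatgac
Probe A had a signal of 7022 and 5691, and probe B 269.8 and 192. The remaining Col1a1 probe, which represents the gene here, was saturated at 61238 and 61798. Probes of 1 transcript thus spanned the range from dim to saturated on the same arrays, and their distance from the primed end was not tested.

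For S100a6 (NM_011313), a calcium-binding protein abundant in fibroblasts, the only probe of the gene was saturated at 61814 and 64565.
S100a6: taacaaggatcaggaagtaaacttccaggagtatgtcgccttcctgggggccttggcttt
Il1rl1, the receptor for Il33, also called ST2, gives a soluble and a membrane-bound protein from alternative transcripts. Of its 3 probes, the following one was designed on NM_010743 and had a signal of 1012 and 1133.
Il1rl1: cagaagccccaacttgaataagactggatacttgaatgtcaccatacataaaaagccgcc
Another probe of NM_010743 was saturated at 66834 and 72361, and a probe of NM_001025602 had a signal of 14073 and 15878. All 3 Il1rl1 probes were well above background on both arrays.

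The brightest members of the prolactin family, Prl2c3 and Prl2c5, are near-identical placental hormones also known as proliferins. Their brightest probes are shown with capitals on the bases that differ between the aligned probes or that fall in an inner gap of the other probe. Bases past the other probe's end are in lower case.
Prl2c3: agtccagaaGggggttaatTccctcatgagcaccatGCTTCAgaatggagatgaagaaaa
Prl2c5: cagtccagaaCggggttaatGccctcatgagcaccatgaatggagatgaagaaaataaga
Aligned over 60 positions, the pair shared 52 bases, differed by 2 substitutions and were set apart by a gap of 6 positions. Both were saturated, Prl2c3 at 64016 and 63888 and Prl2c5 at 63536 and 62279. Which paralogue's RNA each probe bound was not tested.

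Of the 19516 genes, 12434 (63.7%) were well above background on both GFP arrays, 6272 (32.1%) on neither and 810 (4.15%) on 1 array. Among genes seen on 1 array, 616 passed on replicate 1 and 194 on replicate 2. The median signal of genes on both arrays was 755 and 689, against 2.94 and 2.96 for genes on neither. Of 308 negative control spots, which match no mouse transcript, 3 (0.974%) were well above background on each array, with a median signal of 2.80 and 2.81 and highest values of 62.1 and 39.9. Values near that median form the floor of the signal. They are not measured levels of a transcript, and differences among them carry no meaning. A signal of at least 100 on both arrays, well clear of those spots, was reached by 9701 genes. Saturation on both arrays was found for 131 genes (0.671%) and on 1 array for 8.

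The replicates were close to each other. Across genes well above background on both arrays, Pearson's r of the log2 signals was 0.995. This r is across genes, which are not independent replicates. After each array was shifted by its 75th percentile, the difference of replicate 2 from replicate 1 had a median of 0.13 and an SD of 0.31 on the log2 scale. Among the dimmest 10% of these genes the SD was 0.44, and among the brightest 10% it was 0.16. A difference of more than 1 in log2 was found for 112 genes (0.901%), of which 92 were lower in replicate 2. The 5 largest differences in that direction included Nr1i3, a nuclear receptor of liver, at 179 and 34.6, and Prss22, a serine protease, at 134 and 26.1. Trim55, a muscle protein, stood at 2337 and 469, L1td1, a protein of pluripotent cells, at 206 and 45.1 and Etnk2, an ethanolamine kinase, at 493 and 114. In the other direction Traf3ip1, a protein of cilia, stood at 28.6 and 67.7 and Cck, the gut hormone cholecystokinin, at 873 and 2033. The esterase Ces3 had 29.7 and 70.2, the kinase Glyctk 14.6 and 32.5 and the T cell antigen Cd7 15.3 and 32.9. Except for Trim55, Etnk2 and Cck, these genes were dim, at or below the 75th percentile of all probes on each array (384 and 323).

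**Figure D1:**
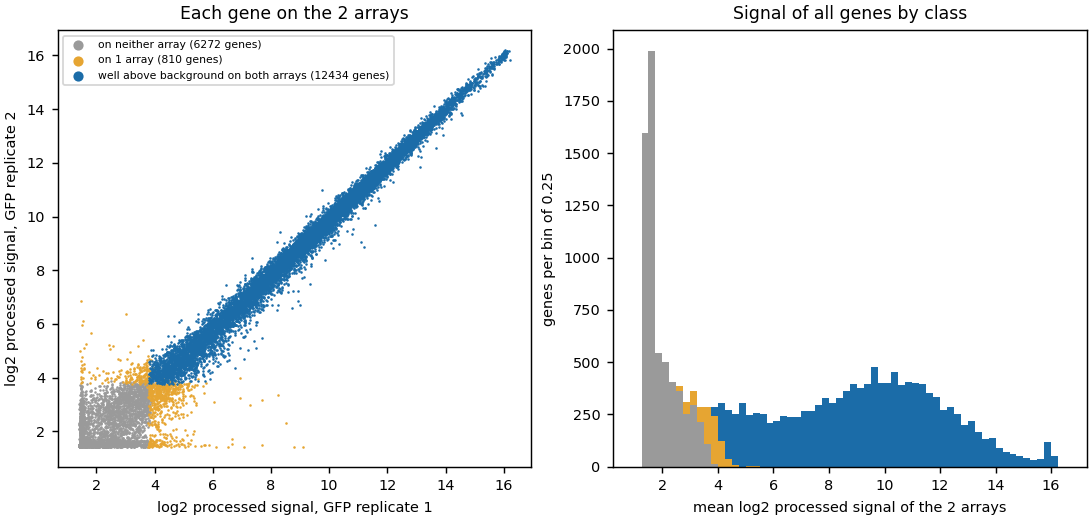
Left, log2 processed signal of each of the 19516 genes on GFP replicate 1 (x axis) and GFP replicate 2 (y axis), coloured by whether the gene was well above background on both arrays, 1 or neither. Right, number of genes per bin of 0.25 in mean log2 signal, stacked by the same classes. The 6272 genes on neither array pile up at the lowest signals, and a small peak at the right end holds the saturated probes.

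All 18 fibroblast markers measured were well above background on both arrays, and 5 of them were saturated on both. The list took in Col1a1, Fn1, S100a4, S100a6 and Il1rl1, and was drawn up with earlier results of these data known. Col1a1, S100a4, S100a6 and Il1rl1 are among those saturated, so these counts partly restate the choice of list. S100a4, a calcium-binding protein, had a signal of 71152 and 72909, with a mean of 72030.3 ± 1243 (SD, n = 2). Both chains of type I collagen were saturated, Col1a1 at 61238 and 61798 and Col1a2 at 64313 and 69461. Vim, the filament protein vimentin, stood at 58774 and 57619.8 without reaching saturation. The small proteoglycan Dcn (decorin) had 69825 and 65435, and was saturated on 1 of the 2 arrays. Sparc, which binds collagen during its assembly, stood at 35577 and 30318, and Thy1, a surface antigen of fibroblasts, at 28799.8 and 26926. Prrx1, a homeodomain factor of limb and skull mesenchyme, had 15872 and 15546. Fn1, fibronectin, had a signal of 12385 and 9779, with a mean of 11082 ± 1842 (SD, n = 2), and its probe was spotted 8 times on each array. The platelet-derived growth factor receptors were dimmer, Pdgfrb at 10870.0 and 8519, and Pdgfra at 5099 and 3637. Twist1, a helix-loop-helix factor of mesenchyme, was the dimmest marker at 1193 and 1028, still above that percentile. No listed fibroblast marker was at background in the line.

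Defining markers of several other cell types were at background. Of 8 endothelial markers, 7 were on neither array, among them Kdr at 2.82 and 2.89 and Cdh5 at 2.85 and 2.82, and Vwf alone passed, at 22.5 and 23.8. Of 9 hepatocyte markers, 8 were on neither array, including albumin (Alb) at 2.70 and 2.74, and Hnf4a passed at 19.1 and 19.6. None of 7 B cell markers passed on both arrays. Among 13 epithelial markers 8 were on neither array, and these included the adhesion proteins Cdh1 (E-cadherin) at 2.96 and 2.98 and Epcam at 5.38 and 3.03. The 4 epithelial markers that passed were Krt14 at 264 and 293, Krt8 at 123.2 and 62.2, Cldn3 at 38.7 and 32.3 and Krt5 at 34.0 and 31.6. The pan-leukocyte gene Ptprc stood at 5.05 and 2.78 and the macrophage gene Emr1 at 2.73 and 2.78, both on neither array. Cd14, a co-receptor for bacterial lipopolysaccharide that fibroblasts also carry, was the brightest of the 4 macrophage markers that passed, at 967 and 852. T cell markers passed for 4 of 8 genes (50%) at no more than 49.8, as Cd3e did at 49.8 and 45.6.

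Mesenchymal relatives of the fibroblast were represented in part. Of 7 smooth muscle markers 6 passed on both arrays, led by Acta2, smooth muscle actin, at 38439 and 38047 and Tagln, transgelin, at 9414 and 11141. Their late marker Myh11, smooth muscle myosin, was on neither array at 9.20 and 11.3. From the cartilage and bone list, Sox9 at 3280.2 and 3189.8, Runx2 at 1844 and 1992 and Col2a1 at 506 and 373 passed, whereas the bone sialoprotein Ibsp stood at 2.80 and 2.73 and the osteoblast factor Sp7 at 5.10 and 11.1. Fat cell genes were split. The lipase Lpl had 3194 and 2573 and the fatty acid binding protein Fabp4 505 and 455, while the hormones of mature fat cells were on neither array, Adipoq at 4.23 and 2.70, and Lep at 2.70 and 2.70. Of 12 skeletal muscle markers 3 passed, led by Acta1 at 713 and 635. Myf5 had 2.87 and 62.6 and was well above background in replicate 2 alone. Of other drivers of muscle fate, Myod1 stood at 9.97 and 14.8, and Myog at 5.92 and 2.73. Of 10 markers of pluripotent and germ cells 2 passed on both arrays, and the highest value in that list was 148. Its pluripotency factors Pou5f1 at 4.81 and 2.91, Nanog at 13.9 and 13.4 and Sox2 at 2.87 and 2.89 were on neither array. In such bulk RNA, fewer cells of a type and less RNA per cell cannot be told apart, and the part of other cells in the culture was not tested.

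**Figure D2:**
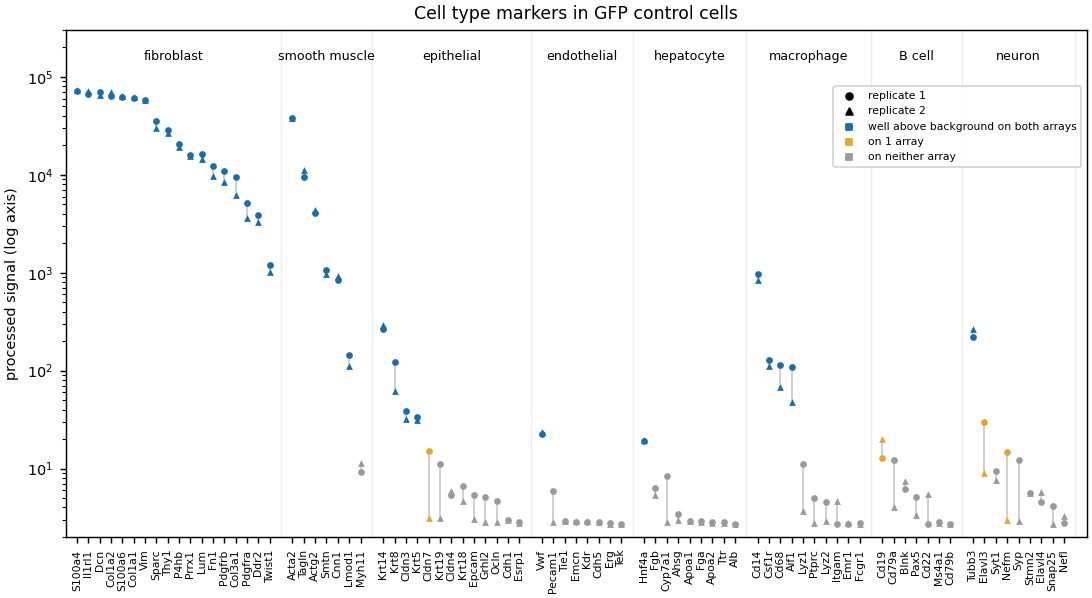
Processed signal (y axis, log scale) of each measured marker gene of 8 cell types on GFP replicate 1 (circles) and replicate 2 (triangles), joined by a grey line and coloured by class. All 18 fibroblast markers lie above 1000, whereas 7 of 8 endothelial and 8 of 9 hepatocyte markers lie in the grey band of genes on neither array.

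Ribosomal protein genes were frequent among the saturated probes. Of the 131 genes saturated on both arrays, 54 (41.2%) encoded cytosolic ribosomal proteins. The 20 named genes with the highest mean signal, nearly all saturated and so without an order, included Rps28 at 73613 and 73452, Rps4x at 68091 and 75248 and Rpl41 at 69998 and 70324, all part of the ribosome, and Fau, which is processed to a ribosomal protein, at 70524 and 72706. Outside the ribosome the group held S100a4 and Il1rl1, whose values are given above, and Lmna, the nuclear lamin A, at 70058 and 69389. Also in it were Gpi1, the glycolytic phosphoglucose isomerase, at 68234 and 71349, the ferritin heavy chain Fth1 at 67929.9 and 69238 and Hmga1, a chromatin protein of dividing embryonic cells, at 65765 and 71226. Psmd3, a subunit of the proteasome cap, had 69397 and 70554, and Gnb2l1, the scaffold protein RACK1 bound to ribosomes, 68282 and 71876. The brightest genes saturated on neither array were Rpl15 at 68060.0 and 69464, Serpinf1, the secreted factor PEDF, at 61222 and 65004 and H3f3b, a replacement histone H3, at 63348 and 61522. Ldha, lactate dehydrogenase, had 62722 and 61908 and Eef2, the elongation factor, 65621 and 58411. The group ended with Mrfap1, Eif3h, Erh, Nap1l1 and Ptms, of which Ptms had 59669 and 62382.

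Genes of the extracellular matrix included some of the brightest of the cell. Collagen chains passed on both arrays for 28 of 38 genes (73.7%, against 63.7% of all genes), and 12 of them reached 1000 on both arrays. With the dimmest probe of each gene 22 of 38 passed, a share close to the 57.0% of all genes in that setting. Behind the chains of type I came Col16a1, which lies along fibril surfaces, at 41669.6 and 38424, Col6a3 of the microfibrils at 15112 and 11450.4 and Col8a1 of vessel walls at 12318 and 13663. The type III chain Col3a1 had 9584 and 6275. Among 9 chains on neither array were Col4a3 of the kidney basement membrane at 3.01 and 2.76, Col9a1 of cartilage at 6.58 and 8.45 and Col10a1 of growing cartilage at 3.71 and 3.60. Matrix glycoproteins and proteoglycans passed for 41 of 50 genes (82.0%). Spp1, osteopontin, was saturated at 64265 and 62399, and Ltbp2, which binds microfibrils, stood at 36784 and 29696. Matn1, Matn3 and Matn4, the matrilins of cartilage, were on neither array, as was the liver protein Vtn, vitronectin, at 6.73 and 2.95.

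Receptors and enzymes of the matrix followed a mixed pattern. Integrins passed for 17 of 26 genes (65.4%, close to the 63.7% of all genes). Itgb5, a beta chain of vitronectin receptors, had 20789 and 18761, Itga11, a collagen receptor of fibroblasts, 6216 and 4513, and Itgb1, the common beta chain, 2229 and 2301. The leukocyte chains Itgad, Itgam and Itgax were on neither array, with Itgam at 2.74 and 4.70. Laminin chains passed for 5 of 9 genes (55.6%), from Lamc1 at 8718 and 7461 to Lama5 at 36.0 and 22.3, and Lama1 of early embryonic membranes stood at 2.86 and 2.88. Matrix metalloproteinases, which cut the matrix, passed for 8 of 22 genes (36.4%). Mmp14, which is bound to the membrane, was bright at 17887 and 16405, and Mmp2, which it activates, at 11277 and 8668. The other 6 that passed were dimmer, from Mmp11 at 938 and 798 to Mmp17 at 56.7 and 64.5 and Mmp16 at 41.3 and 41.3. The stromelysin Mmp3 and the collagenase Mmp13, enzymes of inflamed tissue, were on neither array, Mmp3 at 5.85 and 3.44, and Mmp13 at 2.91 and 2.80. All 4 tissue inhibitors passed, Timp2 at 61672 and 56544, Timp1 at 19224 and 20409.5, Timp3 at 17631 and 13906 and Timp4 at 47.5 and 40.2.

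Filament and junction genes were uneven within their families. All 6 actins passed, Actg1 at 49244 and 39074 and the lowest, Acta1, at 713 and 635. The 4 tropomyosins, which wind around actin, lay between 11983 and 28831. Tubulins passed for 14 of 16 genes (87.5%), with Tubb5 and Tuba1c saturated on both arrays. Among filament proteins of the vimentin and neuronal types, 4 of 10 passed, and Des of muscle stood at 7.22 and 3.63 and Gfap of astrocytes at 3.09 and 3.11. Keratins, the filaments of epithelia and hair, passed for 14 of 50 genes (28.0%) and the brightest was Krt14, given above. Those of simple epithelia were low, Krt18 at 6.64 and 4.64, and Krt19 at 11.1 and 3.14. Cadherins passed for 4 of 23 genes (17.4%). Cdh11, the cadherin of mesenchyme, had 2799 and 2823 and Cdh2, N-cadherin, 113 and 173. Also passing were Cdh22 at 200.1 and 172 and Cdh20 at 30.4 and 40.9. Claudins, the sealing proteins of epithelial tight junctions, passed for 7 of 22 genes (31.8%), and 1 of them, Cldn12 at 553 and 442, reached 100 on both arrays. Connexins of gap junctions passed for 9 of 19 genes (47.4%), with Gjc1 at 2492 and 2652 and Gja1 at 400.0 and 542.

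Calcium-binding proteins included several of the bright genes. S100 genes passed for 10 of 15 (66.7%, close to the 63.7% of all genes), and 6 of them reached 100 on both arrays, and beyond S100a4 and S100a6 the brightest was S100a10, the partner of annexin A2, at 26626 and 30531. Of the inflammatory pair of neutrophils, S100a8 was on neither array at 2.77 and 3.86, and S100a9 passed on replicate 2 alone at 8.48 and 14.2. Annexins, which bind membranes in the presence of calcium, passed for 11 of 12 genes (91.7%). Anxa1 had 21565 and 24096, Anxa2 20181 and 21971 and Anxa5 19616 and 20089, and the one that did not pass was Anxa10 of stomach at 2.82 and 2.92.

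Machinery shared by all cells was detected almost completely, apart from glycolysis, and many of the missing members are copies known from single tissues. Cytosolic ribosomal proteins passed for 82 of 84 genes (97.6%), with median signals of 63895 and 63101. The exceptions were Rpl3l of muscle at 8.05 and 8.75 and the testis copy Rpl10l at 2.83 and 2.85. All 75 mitochondrial ribosomal proteins passed, the lowest value being 311.5. Proteasome subunits passed for 37 of 39 (94.9%), without Psma8 of testis at 2.77 and 2.74 and Psmb11 of thymus. Respiratory chain subunits passed for 80 of 84 (95.2%). The missing 4 were Cox4i2 at 5.95 and 2.85, Cox7b2 at 6.67 and 7.17, Cox8b at 3.35 and 2.96 and Cox8c at 2.86 and 2.82, which are alternative forms of cytochrome oxidase subunits. All 9 chaperonin CCT subunits passed. Glycolysis enzymes passed for 20 of 26 (76.9%), with Gpi1, Pgk1 and Aldoa saturated. Among the 6 that did not pass were Hk3 of leukocytes at 4.75 and 10.8, and the sperm enzymes Gapdhs, Ldhc and Pgk2. Gapdhs stood at 6.23 and 3.12, Ldhc at 3.68 and 2.75 and Pgk2 at 2.75 and 2.93.

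Genes of the dividing cell were detected nearly completely. Cell division genes passed for 30 of 31 (96.8%), and 26 of them reached 1000 on both arrays. Mcm6 of the replicative helicase had 38017 and 37942, Cdc20 of mitotic exit 28036 and 35940.4, Birc5 (survivin) 20617 and 24019 and Pcna, the sliding clamp, 17066 and 21193. Cdk2, a kinase of the S phase, was the exception at 10.6 and 9.79, on the brighter of its 2 probes. Of 8 kinase inhibitor genes 5 passed (62.5%, close to the 63.7% of all genes). Cdkn2c had 5551 and 6007, Cdkn1a, the p53 target, 1777 and 1696, Cdkn2d 1536 and 1291, Cdkn3 1203 and 1077 and Cdkn1b 194 and 169. At background were Cdkn2a, which encodes p16 and p19Arf and is known to be deleted in NIH3T3 cells, at 2.76 and 2.69, its neighbour Cdkn2b at 4.67 and 5.59 and the imprinted Cdkn1c at 4.89 and 3.51. These values were those of 1 probe for Cdkn2a, and they lay at the median of the negative control spots.

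Most histone genes were detected although many of their transcripts lack a poly(A) tail. Replication-dependent histones passed for 36 of 42 genes (85.7%) and 5 were saturated, among them Hist2h2ac at 68349 and 66497 and Hist1h2ah at 63164 and 65622. The median over the 42 genes was 753 and 760, and 19 of them reached 1000 on both arrays. Copies of these genes are nearly identical in sequence, so a probe can bind several of them. Hist1h2ac was well above background on replicate 1 alone at 134 and 2.69. All 11 replication-independent histones passed, led by H2afj at 69128 and 70206. The 6 sirtuins with an NM_ probe, deacylases that use NAD, all passed, and 7 sirtuins passed with XM_ accessions added. Sirt7, the gene overexpressed in the other lines, had 3125 and 2480.2 here, Sirt3 2589 and 2086, Sirt2 2328 and 1993 and Sirt6 1330.5 and 1022. Dimmer were Sirt1 at 384 and 341 and Sirt5 at 197 and 154.

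Secreted signals were a small and uneven selection of their families. Chemokines, which draw leukocytes, passed for 13 of 36 genes (36.1%). Ccl2, which draws monocytes, was bright at 54807 and 58582, and next to it came Ccl7 at 9409 and 7816. Of those that draw neutrophils Cxcl5 had 23069.7 and 23765, and Cxcl1 7678 and 7164. Cxcl12, the stromal ligand of stem cells, had 4213 and 3308. Ccl1, Ccl3, Ccl4 and Ccl11 were on neither array, with Ccl3 at 2.81 and 2.72. Of 17 chemokine receptors 5 passed, and Cxcr7, a decoy receptor for Cxcl12, alone exceeded 1000, at 3213 and 2877, while the signalling receptor Cxcr4 stood at 5.09 and 6.55. Interleukins passed for 14 of 39 names (35.9%), a list that by its name pattern also took in the receptors Il7r and Il9r, both on neither array. Il18 had 1002 and 692, Il6 725 and 703, Il11 566 and 676 and Il34 576 and 447. Il33, the ligand of Il1rl1, had 94.8 and 54.6. Lymphocyte and myeloid products were on neither array, as with Il1b at 2.77 and 2.76, and Il3 at 2.69 and 2.72. Interleukin receptors passed for 17 of 37 genes (45.9%), led by Il1rl1. Next came Il11ra2 at 42626 and 33907 and its close copy Il11ra1, the alpha chain of the Il11 receptor, at 39098 and 30306.

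Of 12 Toll-like receptors, which sense microbial products, 6 passed (50%, against 63.7% of all genes). Tlr2 had 6247 and 4551, Tlr9 983 and 937 and Tlr4 669 and 703, and Tlr5, Tlr7 and Tlr8 stood at background. Type I interferons passed for 5 of 15 genes (33.3%). Ifnz was the brightest at 255 and 249, whereas Ifnb1, the member that fibroblasts make on infection, stood at 2.80 and 2.77.

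Growth factors and their receptors were detected in part. All 5 fibroblast growth factor receptors passed, with Fgfrl1 at 1223 and 1029.8, Fgfr1 at 998 and 581, Fgfr2 at 617 and 586, Fgfr3 at 254 and 243 and Fgfr4 at 23.6 and 23.7. Of their 22 ligands 8 passed, and those that act from mesenchyme on epithelium were the brightest, Fgf7 at 3966 and 4489, and Fgf10 at 997 and 830.2. Next among them was Fgf18 at 90.8 and 58.7. Frizzled receptors for Wnt passed for 8 of 10 genes (80.0%), led by Fzd2 at 3738 and 3389 and Fzd1 at 2704 and 2522. Wnt ligands passed for 7 of 19 (36.8%), none above 82.3, with Wnt9a at 82.3 and 55.0 and Wnt5a at 50.2 and 33.2. Ligands of the TGF-beta and BMP family passed for 15 of 29 genes (51.7%). Tgfb3 had 4984 and 4334, Inhba, the activin chain, 1012 and 1041 and Tgfb1 187 and 190.4, whereas Bmp2 stood at 3.10 and 3.06, and Bmp6 at 3.14 and 2.85. Among platelet-derived and vascular growth factors and receptors 10 of 14 passed (71.4%, against 63.7% of all genes). The ligands Pdgfa at 6337 and 6342 and Pdgfc at 1593 and 1652 passed as did both of their receptors, while Pdgfb stood at 3.65 and 2.91, and Pdgfd at 2.79 and 2.73. Vegfb at 9065 and 8054 and Vegfa at 1243 and 1163 passed, and of the vascular receptors Flt1 had 185 and 142 and Flt4 2.86 and 2.81.

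Hox genes, which record position along the body axis, were detected in part. Of 39 measured genes 21 passed on both arrays (53.8%, against 63.7% of all genes). Genes of paralogue groups 1 to 9 passed for 20 of 27, and none of the 9 genes of groups 11 to 13, which mark the distal limb and tail, passed, their highest value being 8.98. This division was drawn after the values were seen. Group 9 was complete, with Hoxb9 at 707 and 525, Hoxc9 at 483 and 513, Hoxd9 at 425 and 287 and Hoxa9 at 53.6 and 49.6. Hoxd10 at 88.5 and 76.8 was the furthest gene to pass. The brightest was Hoxa7 at 6855 and 6685. Between the replicates Hoxd4 and Hoxc6 were uneven, Hoxd4 at 1744 and 647, and Hoxc6 at 1293 and 505. Within the anterior groups Hoxb1, Hoxb2 and Hoxd1 were on neither array.

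**Figure D3:**
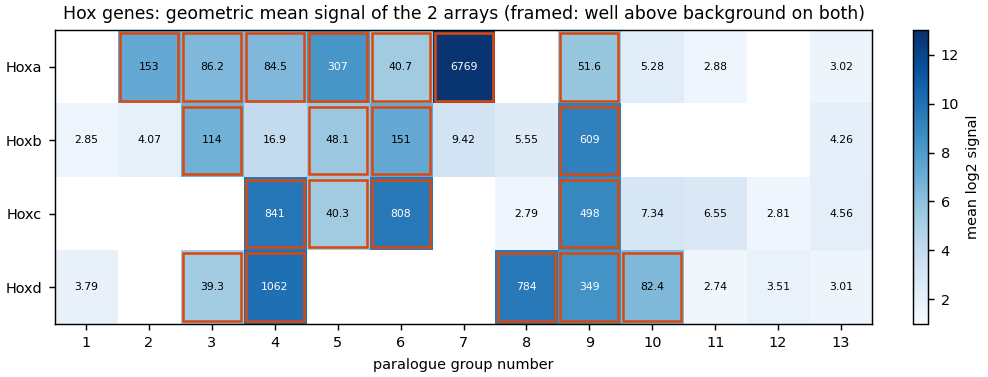
Geometric mean processed signal of measured Hox genes over the 2 GFP arrays, by cluster (rows) and paralogue group number (columns), coloured by mean log2 signal. Framed cells were well above background on both arrays, and blank cells have no value shown. All 4 genes of group 9 are framed and none of the 9 genes of groups 11 to 13.

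Other developmental regulators passed in smaller shares than all genes (63.7%). Forkhead genes passed for 24 of 44 (54.5%), with Foxf2 of gut and palate mesenchyme at 6731 and 7762. Sox genes passed for 8 of 19 (42.1%), led by Sox9 and by Sox4 at 2024 and 1979. Of 14 T-box genes 5 passed. These were Tbx3 at 3910.3 and 3328, Tbx15 of dermis at 1593 and 1445, Tbx18 at 349 and 320.1, Tbx2 at 215 and 177 and Tbx6 at 132 and 45.3, and the limb genes were on neither array, Tbx4 at 10.0 and 5.71, and Tbx5 at 8.68 and 5.49. Pax genes passed for 2 of 9 (22.2%), Pax9 at 279 and 235 and Pax7 at 72.9 and 29.2. POU genes passed for 4 of 15 (26.7%), among them the broadly used Pou2f1 at 692 and 563. Gata genes passed for 2 of 6 (33.3%), Gata2 at 861 and 814 and Gata6 at 195 and 142. Lim homeobox genes passed for 4 of 8 (50%), led by Lhx6 at 505 and 481 and Lhx9 at 205 and 224.

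Among more broadly used transcription factors most members passed. Krüppel-like factors passed for 15 of 17 genes (88.2%). Klf2, which shear stress induces in vessels, was saturated at 63676 and 63639, Klf4 stood at 8266 and 9293, and Klf6 at 4472 and 4926. The missing ones were Klf14 at 5.52 and 5.46 and Klf15 at 12.8 and 8.94. AP-1 genes, which respond to serum, passed for 11 of 12 (91.7%), with Junb at 26291 and 23456, Jun at 2647 and 2878, Fosl1 at 2016 and 1898 and Fos at 275 and 235, and without Batf of lymphocytes at 13.6 and 10.1. Factors of the epithelial-mesenchymal transition passed for 8 of 9 (88.9%). Prrx2 had 18396 and 18989, Snai2 (Slug) 4125 and 4341, Twist2 3697 and 3941, Zeb1 1426 and 1347 and Snai1 (Snail) 1264 and 1219, and Snai3 stood at 7.23 and 8.27. Nuclear receptors passed for 15 of 23 (65.2%), including Nr4a1, an immediate-early gene, at 18865 and 12668, Nr2f2 (COUP-TFII) at 11020.0 and 11711 and the glucocorticoid receptor Nr3c1 at 1682 and 1888. Zinc finger genes named Zfp passed for 247 of 296 (83.4%), with a median of 238 and 209.

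Sensory receptor families made up the largest set at background. Of 1049 olfactory receptor genes 849 (80.9%, against 32.1% of all genes) were on neither array and 11.7% on both. The latter were dim, with medians of 32.4 and 26.6, and 8 reached 100 on both arrays. Olfr571 was the brightest at 1675 and 1749, followed by Olfr1465 at 614 and 868. Vomeronasal receptors, which sense pheromones, passed for 15 of 228 genes (6.58%), and taste receptors for 7 of 37. The share that passed in both large families was thus above the 0.974% of negative control spots and below that of all genes. The median GC content of the olfactory probes was 45% among those on both arrays and 40% among those on neither, and the part of base composition in these signals was not tested.

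Families known from other tissues passed in smaller shares than all genes. Beta-defensins, antimicrobial peptides of epithelia, passed for 3 of 42 genes (7.14%) and none exceeded 51.6. Late cornified envelope genes of skin passed for 2 of 15 (13.3%), and the brightest of 34 killer lectin-like receptors, which natural killer cells use, reached 89.1. Among ion channels, subunits of nicotinic receptors passed for 2 of 16 (12.5%), of GABA-A receptors for 3 of 19, of voltage-gated potassium channels for 3 of 16 and of voltage-gated sodium channels for 5 of 13. Opsins passed for 2 of 8 (25%), with Opn5 at 436 and 404. Globins passed for 4 of 9 (44.4%), with the neuronal Ngb at 165 and 167 and adult beta globin Hbb-b1 at 35.5 and 42.7. Secretoglobins passed for 2 of 4 (50%), Scgb3a2 at 139 and 46.7 and Scgb1a1 at 38.1 and 35.3, while Scgb1c1 stood at 2.89 and 2.82, and Scgb3a1 at 4.83 and 3.61. Cyp2 cytochromes passed for 18 of 42 (42.9%), and 1 of them, Cyp2f2 at 1134 and 453, exceeded 1000 on an array.

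In the families that follow, a few members were bright. Placental prolactin genes passed for 4 of 23 (17.4%), yet 3 of these exceeded 1000, namely Prl2c3, Prl2c5 and Prl2c1 at 17369 and 22023, and the other one, Prl3b1, had 123.5 and 133. Rhox5, an X-linked homeobox gene of testis and placenta, had 22145 and 24265 among 20 Rhox genes, of which 9 passed. Keratin-associated proteins of hair passed for 15 of 49 genes (30.6%), with Krtap4-6 at 47953 and 55116 and Krtap4-8 at 5864 and 7663. Lens crystallins passed for 6 of 16 (37.5%), and Cryab, which is also a small heat shock protein, had 1496 and 1487. From the glutamate receptors Gria1 had 3445 and 2712, and from the GABA-A receptors Gabrr2 had 1129 and 1326. Clade A serpins, mostly made in liver, passed for 6 of 18 (33.3%), with Serpina3h at 15713 and 20737 and Serpina3g at 5144 and 3907. Other serpins passed for 16 of 35 (45.7%), and besides Serpinf1 they included Serpinh1, the collagen chaperone Hsp47, at 56859 and 55934. Among 11 aquaporins Aqp1 had 10723 and 8982 and Aqp5 5085 and 5245. Some of these names belong to gene clusters with near-identical copies, and the transcripts bound by each probe were not tested.

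**Figure D4:**
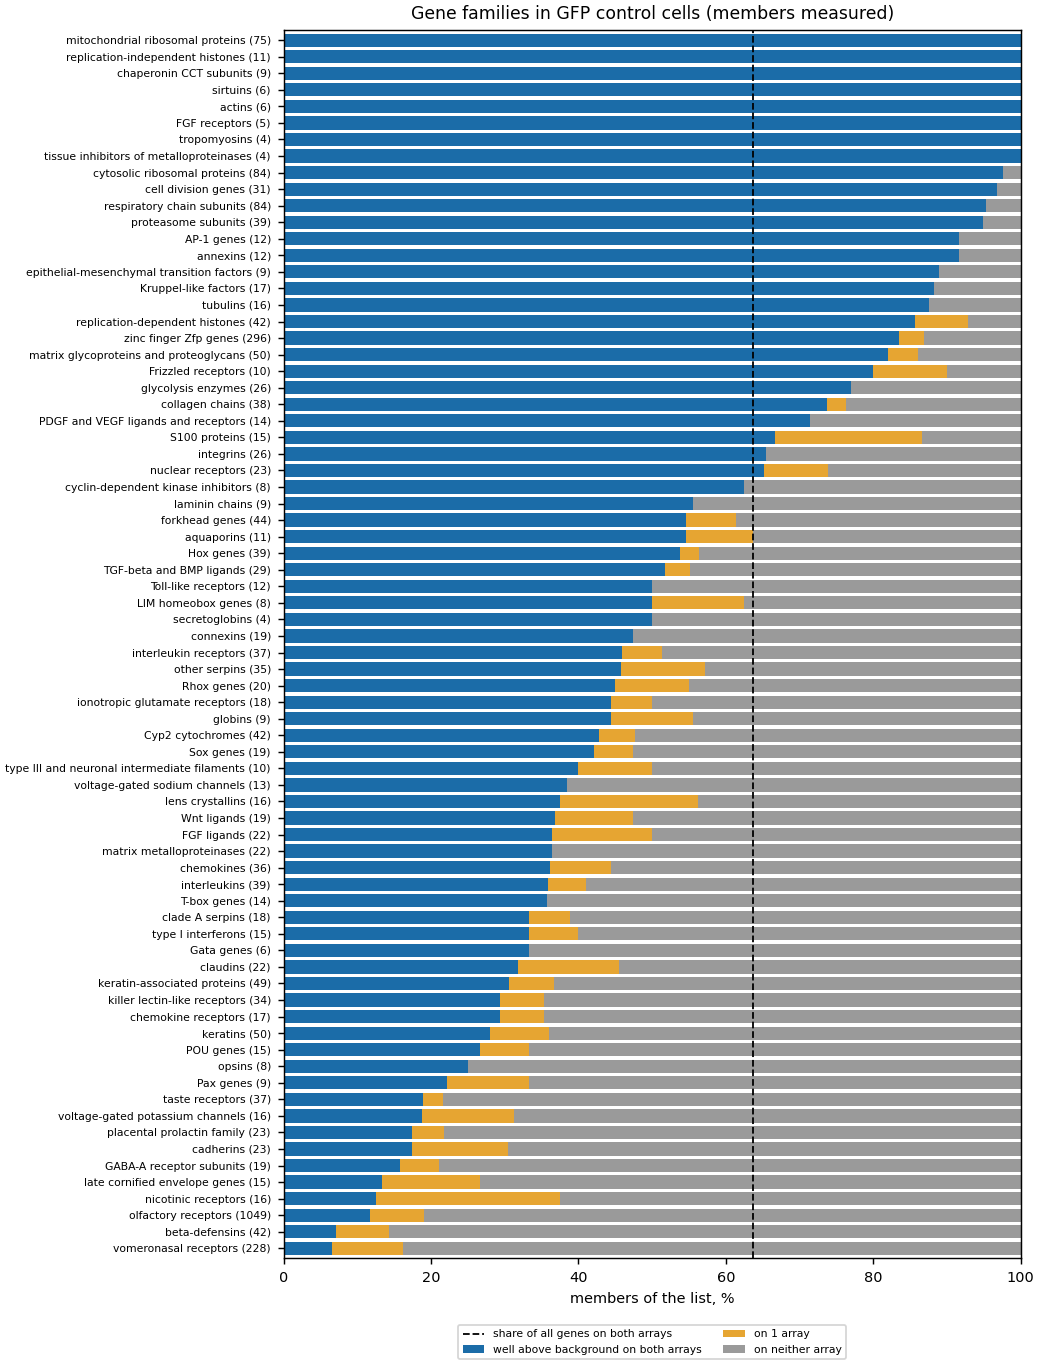
Share of the measured members of each of the 74 gene lists (number of members in brackets) that were well above background on both GFP arrays, on 1 array or on neither, sorted by the share on both. The dashed line is the share of all genes on both arrays, 63.7%. The 8 lists at 100% include mitochondrial ribosomal proteins and chaperonin CCT subunits, and also short lists such as tissue inhibitors of metalloproteinases and FGF receptors. Vomeronasal and olfactory receptors and beta-defensins lie at the bottom.

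The sequence before the transcription start differed between detected and undetected genes. Promoters were taken from RefSeq (mouse build GRCm38.p6) for the 12466 genes that matched by accession and had 1 listed start, as the 250 bases upstream of it. The CpG ratio, observed CG pairs over those expected from the C and G content, had a median of 0.731 (quartiles 0.509 and 0.890) among 7768 genes on both arrays and 0.235 (quartiles 0.102 and 0.478) among 4181 genes on neither. A ratio over 0.6 was found for 67.1% and 18.1% of them, and for 6089 of the 12466 genes together. Among all 32851 promoters listed the share was 34.0%, but these also cover genes with several starts and genes not matched here. Read the other way, 85.5% of the 6089 genes were on both arrays, and 40.1% of the others. With genes of 1 probe alone the shares were 81.5% and 34.4%. The motif TATAAA, searched on the gene's strand with its first base 45 to 10 bases before the start, was found for 1.88% of genes on both arrays and 5.84% of genes on neither. These shares were described without a test. Among the promoters, 3 are shown, a CpG-rich one of a saturated gene, a CpG-poor one of a saturated gene, and one of a gene on neither array. Capitals mark CG pairs and the TATAAA motif.
Rps28, chr17:33824563-33824812, minus strand: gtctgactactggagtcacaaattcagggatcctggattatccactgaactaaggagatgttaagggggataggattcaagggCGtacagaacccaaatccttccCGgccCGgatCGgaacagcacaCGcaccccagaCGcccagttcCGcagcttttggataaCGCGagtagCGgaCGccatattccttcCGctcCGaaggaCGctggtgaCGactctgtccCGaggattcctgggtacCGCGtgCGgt
S100a4, chr3:90603520-90603769, plus strand: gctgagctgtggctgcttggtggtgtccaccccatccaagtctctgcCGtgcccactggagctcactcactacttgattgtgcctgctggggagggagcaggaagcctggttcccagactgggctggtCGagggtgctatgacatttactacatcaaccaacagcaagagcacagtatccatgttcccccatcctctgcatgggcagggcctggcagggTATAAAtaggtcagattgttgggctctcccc
Alb, chr5:90460620-90460869, plus strand: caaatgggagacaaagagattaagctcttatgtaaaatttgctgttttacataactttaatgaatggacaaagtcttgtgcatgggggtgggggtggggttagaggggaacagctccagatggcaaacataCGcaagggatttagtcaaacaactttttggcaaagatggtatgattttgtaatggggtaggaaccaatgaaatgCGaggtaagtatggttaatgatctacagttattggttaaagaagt
In the window of Rps28 there were 19 CG pairs (ratio 0.956), in that of S100a4 2 (0.0978) and in that of Alb 2 (0.261). The S100a4 window also held a TATAAA motif. A match to these letters is a description of the sequence and does not show that a factor binds there.

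With the genes put in 10 equal bins by mean signal, the median CpG ratio went from 0.206 in the dimmest to 0.785 in the brightest, with most of the step between bin 4 (0.288) and bin 6 (0.718). Bins 1 to 3, with mean signals up to 7.23, held no gene on both arrays, so their order is one among values near the floor. The families differed in the same measure. The median ratio was 0.834 for cytosolic ribosomal proteins, 0.842 for cell division genes and 0.721 for Hox genes, against 0.0967 for olfactory receptors and 0.0842 for beta-defensins. Matrix genes combined detection with lower ratios, at 0.575 for collagen chains and 0.406 for matrix glycoproteins. Wnt ligands and Sox genes had high ratios (0.768 and 0.833) although most of their members did not pass on both arrays.

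**Figure D5:**
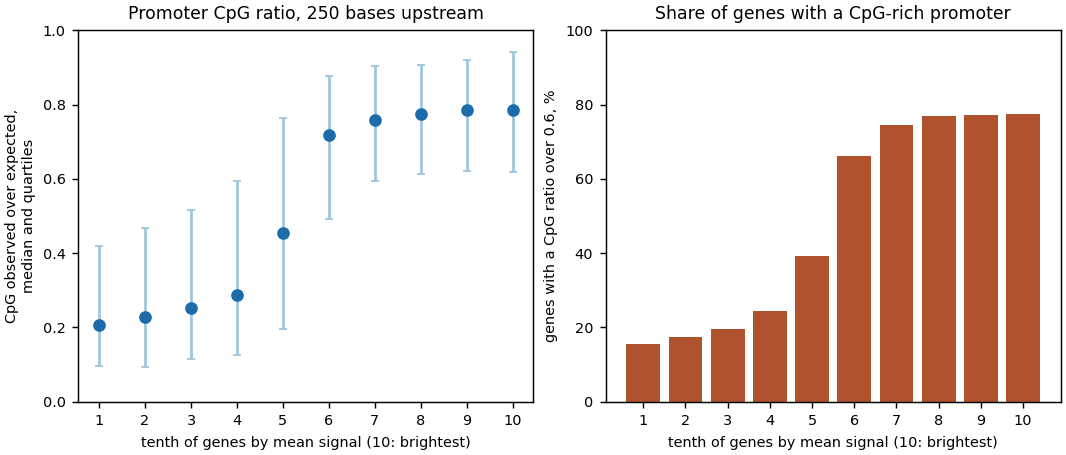
Left, median CpG observed-over-expected ratio with quartiles (bars) of the 250 bases upstream of the start, for 10 bins of 12466 genes ordered by mean signal on the GFP arrays (10 is the brightest). Right, percent of genes in each bin with a ratio over 0.6, which goes from 15.5% in the dimmest to 77.5% in the brightest. Bins 1 to 3 hold no gene on both arrays.

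By chromosome, the share of genes on both arrays lay between 55.9% on chromosome 7 and 72.5% on chromosome 15 among the autosomes. Chromosome 7 held 305 olfactory and vomeronasal receptor genes, and without these families its share was 66.2%. The X chromosome was lowest apart from the Y, at 53.5% of 710 genes, and at 54.1% without those families. Of 21 genes placed on the Y chromosome 1 (4.76%) passed on both arrays, LOC380994 (NM_001037748) at 444 and 423. All 8 Y-linked markers measured were on neither array, among them Ddx3y at 8.22 and 2.89, Eif2s3y at 7.56 and 2.78, Kdm5d at 5.32 and 3.08 and Uty at 2.79 and 2.83.

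How many probes a gene had, and their composition, moved with these counts. Of 12700 genes with 1 probe 55.1% were on both arrays, and of 5220 genes with 2 probes 77.6%. Among the 6816 genes with more than 1 probe, all probes were on both arrays for 4129, all on neither for 1143, and for 953 at least 1 probe was on both arrays and another on neither. Col3a1 shows the spread within a gene, with its other probe at 18.4 and 14.6. For genes with 1 probe, the share on both arrays was 44.7% where the probe's GC content was at most 35% and 72.4% where it was over 50%. Among genes with 1 probe of at most 40% GC, 76.8% of those with a promoter CpG ratio over 0.6 were on both arrays and 23.8% of the others, and the part of probe composition in the counts was not tested. A gene on neither array is therefore one whose probes gave no signal well above background, and absence of its transcript was not shown.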

How the data were processed

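Total RNA of 2 GFP control cultures was measured on 1-colour Agilent arrays. The authors deposited scanner output of Feature Extraction 10.5.1.1 (protocol GE1_105_Dec08), in which the processed signal is an intensity with the background subtracted. Its floor lay near the median of the negative control spots. The marks for signal well above background and saturation were also deposited by the authors, as codes of 0 and 1. The deposited series matrix holds log2 values after a 75th percentile shift. It was used as a check, in which 5 and 8 of 61276 probes differed by more than 0.01 from values recomputed here. Positions of probes within transcripts were not computed. Control spots and outlier spots (19 and 21) were dropped, a probe spotted several times was given its mean, and log2 was taken without a pseudocount. The gene list, classes and promoter values were computed in Python 3.11.15 with pandas 2.3.3 and numpy 2.4.6, and the alternative background correction in R 4.3.3 with limma 3.58.1. No group comparison and no test was made, since 1 group of 2 samples was described. Scripts were tested on simulated data. The 2 arrays limit the precision, and repeated spots of 50 probes had a median coefficient of variation of 6.39% and 5.97% within an array. Genes were matched to RefSeq by accession (18970 of 19516), and for 2760 the current symbol differed from the array's name used here.

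The genes named were the fibroblast markers, the 20 brightest and the 10 brightest unsaturated genes, up to 4 detected and 4 undetected members of each list or whole lists of up to 8, the 5 largest differences between arrays in each direction, and members outside their list's main class. A few more, chosen after their values were seen, are named for their role. The members and lists were chosen with earlier results of these data known. Alternatives varied the mark, the probe taken for a gene, the accessions, the outlier spots, the array left out, the scaling and the background correction. Arrays of the LT7 and ST7 lines were not used here. A few genes are not reported here.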

Additional observations from a re-analysis of the deposited data

Results flagged for a closer look

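Probes outside the ranked mRNA set also carried signal on the GFP arrays. Of 20665 probes named for non-coding transcripts 39.4% were well above background on both arrays, against 63.9% of the NM_ probes and 0.974% of the negative control spots on each array. For probes of predicted transcripts the share was 69.4% of 3107 with an XR_ accession and 40.0% of 8325 with an XM_ accession. Apart from an alternative count with XM_ accessions added, these probes were in no comparison of the report. The signal above the control spots is what marked them.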

How the results depend on the processing

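The number of genes on both GFP arrays kept within 1.5 times of 12434 in all 8 alternatives, between 9701 with a signal of at least 100 on both arrays, a setting chosen after seeing the data, and 15069 with XM_ accessions added. Genes on neither array numbered 3051 with the less strict mark for a signal that is positive and significant, against 6272, and 9935 with XM_ accessions added. Leaving out 1 array gave 12628 and 13050 genes well above background, and 6888 and 6466 not. The promoter difference between the classes, 0.496 in median CpG ratio, was 0.457 with several starts kept and 0.479 with genes of 1 probe, both also chosen after seeing the data. The median difference between arrays turned from 0.13 to -0.11 without scaling and was 0.06 with quantile normalization and 0.12 with normexp. Of 74 lists 26 moved by more than 1.5 times, all upward, with the less strict mark, 38 downward with a signal of at least 100, 10 downward with the dimmest probe of each gene, and 2 and 4 upward without replicate 1 and without replicate 2. None moved with any probe of a gene, XM_ accessions or outlier spots kept. No paired analysis was possible because 1 group was described. Depth here is signal over background, so dim members of a family are the least certain.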

Other observations

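Long non-coding RNAs with an NR_ accession were among the probes outside the ranking, and Malat1, Neat1 and Meg3 were uneven between the replicates. The 4 probes of Malat1 had signals from 1047 to 11703 on replicate 1 and from 258 to 2673 on replicate 2, a difference of -1.88 to -1.60 on the log2 scale after the 75th percentile shift. Neat1, which builds paraspeckles, had 14879 and 5087, a difference of -1.30. All 4 probes of Meg3, an imprinted RNA, were lower in replicate 2, by differences of -1.76 to -1.13, from 1549 and 598 on the brightest to 84.7 and 21.0 on the dimmest. The SD over genes on both arrays was 0.31, so these differences were larger than the spread of most genes. H19, another imprinted RNA, had 31.8 and 33.2. The 4 probes of Xist, the RNA that coats the inactive X chromosome, and the 1 probe of Tsix were on neither array, with values between 2.71 and 2.87. The cause of the differences was not tested.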
